A study of Mus musculus with 6 samples.

Results

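The 9 genes described here carry the TGF-β and activin signal or answer to it: the ligands Tgfb1, Tgfb2 and Tgfb3, the receptors Tgfbr1 and Tgfbr2, the inhibitory SMAD Smad7, the activin subunits Inhba and Inhbe, and the matricellular target Ctgf. They were taken by symbol from the 18444 genes listed in the mouse liver data, by a rule that sets no threshold on their values. RNA was sequenced from the livers of male C57BL/6 mice (C57BL/6J in the methods) in 6 libraries, 1 per condition. The stated age of 6 to 8 weeks is that of the mice used. It is below the 16 weeks of the diet, and the age at collection is not given. In the diet model the conditions were a chow diet (SD), a high-fat diet (HFD, 16 weeks, as a model of NASH) and HFD with JT003 for the last 4 weeks. In the CCl4 model they were corn oil, CCl4 (20% in corn oil, 5 ml/kg every 3 days for 6 weeks) and CCl4 with JT003 for 3 weeks. JT003 is a peptide agonist of the adiponectin receptors AdipoR1 and AdipoR2, injected daily at 0.5 mg/kg. All mice were fasted for 8 h, and groups held 6 mice, but the methods do not state whether a library holds 1 liver or a pool.

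TGF-β is secreted in a latent complex, and once released it binds the type II receptor, which recruits and phosphorylates the type I receptor. The receptor complex phosphorylates SMAD2 and SMAD3, which enter the nucleus with SMAD4, and one gene they induce, Smad7, blocks the receptor in turn. Activins, dimers of inhibin β subunits, signal through related receptors to the same SMADs. In liver, TGF-β is a well-known driver of hepatic stellate cell activation and of collagen synthesis, whereas Inhbe is a product of hepatocytes.

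Inhbe was the most highly expressed of these genes per length in every library and had the largest fall of the 9 with HFD, to 38.98 FPKM from 90.57 in SD. With CCl4, Inhba and Tgfb1 were those of the 9 that rose past the fold threshold, Inhba to 4.46 FPKM from 1.01 in corn oil and Tgfb1 to 5.80 FPKM from 2.41. With JT003 in the diet model Ctgf was lower, at 2.22 FPKM against 5.96 in HFD, and Smad7 was higher, at 3.72 against 2.23. With JT003 in the CCl4 model Inhba was lower, at 2.57 FPKM against 4.46 in CCl4, as was Tgfbr2, at 4.94 against 6.48. Neither fall reached the fold threshold, nor did the rise of Smad7. Against other CCl4 reads of the deposited data the fall of Inhba was smaller, at a log2 ratio of -0.52. Tgfbr2 was at -0.09 when the libraries were scaled to Actb.

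The rounded reads of a library summed to 19374236 to 20184557. Levels are given as FPKM, a level that the authors normalized for transcript length and library depth, and as estimated (expected) counts, in which reads shared between genes are split. A gene passed when the adjusted p of a two-sided exact binomial test on the reads of 2 libraries was under 0.001, and it was called when the log2 ratio was also at least 1 in size. With 1 library per condition there was no replicate check, so each p compares 2 libraries and not 2 conditions, and each 95% interval covers counting error only. When a biological coefficient of variation of 0.2 was assumed in its place, no gene of the 9 was called in any comparison. Hepatocyte markers (Alb, Apoa1 and 4 others) summed to 76908 to 92406 CPM (read counts scaled to library size) in the 6 libraries, which are labelled liver. Summed macrophage markers were lowest in the corn oil library, at 47.9 CPM against 123 to 263 in the other 5. Mitosis genes were highest in the CCl4 library, at 207 CPM against 3.66 to 17.6. Adipocyte markers, of which 3 were listed, summed to 22.6 CPM in HFD, 8.13 in HFD plus JT003 and 11.3 in corn oil, and to at most 0.159 in the other 3. Most of these reads were of Cfd, with 454, 166 and 175 in that order. Adipoq had 0, 0 and 11 reads there, and Plin1 had 1, 0 and 6. Mesothelium markers summed to 13 CPM in corn oil and 11.4 in CCl4, against 1.27 to 4.56 in the other libraries. In such bulk tissue, fewer cells of a type and less RNA per cell cannot be told apart.

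The promoters of Inhbe, Inhba and Tgfb1 are shown because these genes carried the calls between a model and its control. Each is the 250 bases before the gene start in RefSeq (GRCm38.p6), on the strand of the gene, with capitals for a match to 1 of 4 searched motifs on either strand. The Inhbe window lies at chr10:127351849-127352098 on the minus strand, the Inhba window at chr13:16011601-16011850 on the plus strand and the Tgfb1 window at chr7:25686752-25687001 on the plus strand.
Inhbe: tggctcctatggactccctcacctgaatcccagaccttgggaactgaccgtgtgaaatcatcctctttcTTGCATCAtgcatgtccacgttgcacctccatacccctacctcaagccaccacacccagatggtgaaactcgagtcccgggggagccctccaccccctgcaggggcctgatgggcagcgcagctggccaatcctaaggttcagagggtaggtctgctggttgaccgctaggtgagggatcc
Inhba: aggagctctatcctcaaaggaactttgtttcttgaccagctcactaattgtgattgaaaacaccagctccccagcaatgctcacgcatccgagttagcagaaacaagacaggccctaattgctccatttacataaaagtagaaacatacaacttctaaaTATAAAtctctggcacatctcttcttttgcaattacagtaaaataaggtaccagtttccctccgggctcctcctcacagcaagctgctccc
Tgfb1: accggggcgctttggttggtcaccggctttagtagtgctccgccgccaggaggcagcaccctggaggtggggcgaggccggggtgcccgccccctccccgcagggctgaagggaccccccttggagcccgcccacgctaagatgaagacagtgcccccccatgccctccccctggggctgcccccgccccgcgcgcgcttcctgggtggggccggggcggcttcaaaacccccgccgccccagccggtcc
The motifs were the SMAD element CAGACA, the AP-1 site TGACTCA, the TATA box TATAAA and TGATGNAA, the core of the C/EBP-ATF element, and no matches overlapped. The capitals in the Inhba window are TATAAA, from 91 to 86 bases before the start, and those in the Inhbe window are TGATGNAA read on the opposite strand, from 181 to 174 bases before it. The Tgfb1 window held none of the 4. Among 32851 RefSeq windows of the same length, 12.4% held TATAAA, 3.45% held TGATGNAA, 17.1% held CAGACA and 4.46% held TGACTCA. GC content was 43.2% in the Inhba window with 3 CpG, 58.8% in the Inhbe window with 6 CpG and 75.2% in the Tgfb1 window with 21 CpG. A match is a run of letters and says nothing of binding in these livers.

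**Figure D1:**
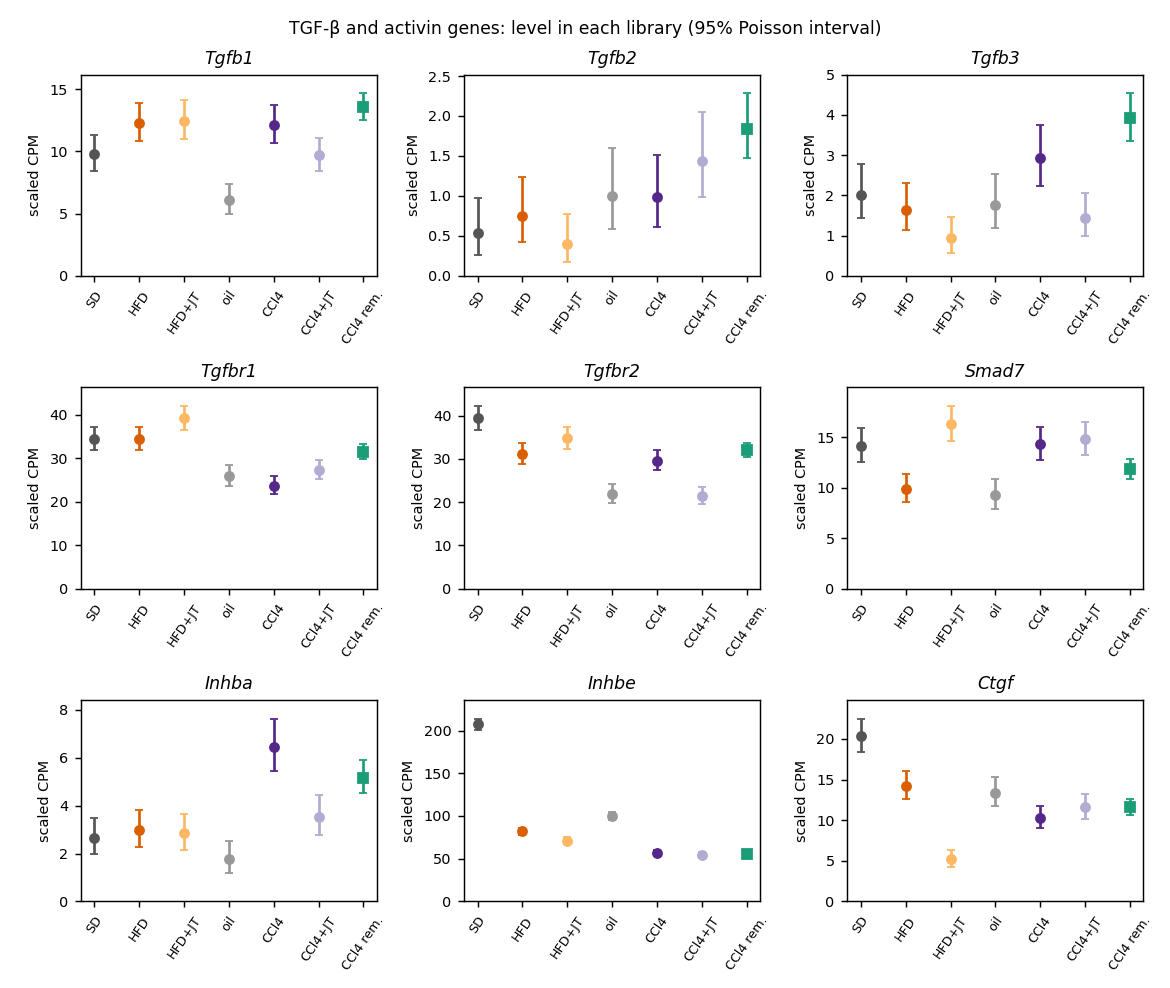
Level of each of the 9 genes in the 6 libraries, in CPM scaled by TMM (vertical axis, from 0), with 95% Poisson intervals. Circles are single libraries, and the square is the remainder of a pooled CCl4 column, described with the CCl4 model. Inhbe stands highest in SD at 208 CPM, Inhba highest in CCl4 at 6.46, Ctgf lowest in HFD plus JT003 at 5.24 and Tgfb1 lowest in corn oil at 6.06.

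Among the ligands, Tgfb1 was the main TGF-β transcript in every library. Its share of the summed FPKM of Tgfb1, Tgfb2 and Tgfb3 ranged from 79.5% in corn oil to 94.2% in HFD plus JT003. Its expected counts were 184 in SD, 247 in HFD, 254 in HFD plus JT003, 103 with corn oil, 257 with CCl4 and 209 with CCl4 plus JT003. Corn oil was thus the one library whose interval lay apart from the next in order, and the 5 others had neighbouring intervals that overlapped. Tgfb1 rose with CCl4 by 1.02 on the log2 scale (interval 0.70 to 1.37, adjusted p 1.52e-09 in the exact test) and was called. This call was lost when the libraries were scaled to Actb, at a log2 ratio of 0.71. With HFD the log2 ratio of Tgfb1 was 0.33 (0.05 to 0.62), which did not pass (exact test, adjusted p 0.0511). With JT003 it was 0.02 over HFD and -0.31 over CCl4, neither of which passed.

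Markers of macrophages, a known source of Tgfb1, differed in the same comparison. They summed to 47.9 CPM in corn oil and 133 in CCl4, and 6 of the 8 passed as higher with CCl4 and 0 as lower. Of all genes 14.1% passed as higher with CCl4 and 12.2% as lower. Myofibroblast markers summed to 47.8 and 150 CPM, but of these 7 genes 1 (Col1a1) passed as higher and 2 as lower, and of the 8 mitosis genes all passed as higher. No macrophage or myofibroblast marker was at 0 in any library. The part of these cells in the levels of Tgfb1, Inhba, Smad7 and Tgfbr2 was not tested. Between corn oil and SD, in turn, 6 of the 8 macrophage markers passed as lower, beside 15.8% of all genes.

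Tgfb2 and Tgfb3 were near the limit of this depth. Tgfb2 had 10 reads in SD, 15 in HFD, 8.03 in HFD plus JT003, 16.79 with corn oil, 21.17 with CCl4 and 31 with CCl4 plus JT003, at 0.08 to 0.31 FPKM. Its interval reached from -0.98 to 1.03 on the log2 scale between CCl4 and corn oil, so that a change of up to about that size was not detectable. Tgfb3 had 38, 33 and 19 reads in SD, HFD and HFD plus JT003, and 30, 62 and 31 reads in corn oil, CCl4 and CCl4 plus JT003. It was highest in CCl4 at 0.90 FPKM, and each of its neighbours in the order of libraries had an overlapping interval. Its log2 ratio was 0.73 for CCl4 over corn oil (0.11 to 1.44, adjusted p 0.0522) and -0.97 for JT003 over CCl4 (-1.68 to -0.37, adjusted p 0.00446), and neither passed the exact test.

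Tgfbr1, the type I receptor kinase, was the steadiest of the 9 genes, with a highest FPKM 1.77 times the lowest. Its expected counts were 648 in SD, 692 in HFD, 802 in HFD plus JT003, 442 with corn oil, 503 with CCl4 and 589.01 with CCl4 plus JT003. The 3 libraries of the diet model stood above the 3 of the CCl4 model, with no overlap of their intervals, from 34.4 CPM upward against 27.4 downward. In none of the 4 comparisons between the 6 libraries did Tgfbr1 pass, although it did with a further set of CCl4 reads. Its log2 ratio was 0.00 with HFD, 0.19 with JT003 over HFD (adjusted p 0.0448), -0.10 with CCl4 and 0.22 with JT003 over CCl4 (adjusted p 0.0398, all exact tests).

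Tgfbr2, the type II receptor that binds the ligand, had expected counts of 743 in SD, 627 in HFD, 710 in HFD plus JT003, 372 with corn oil, 628 with CCl4 and 461 with CCl4 plus JT003. It passed in 3 of the 4 comparisons, each time by less than the fold threshold. Tgfbr2 fell with HFD by 0.34 on the log2 scale (exact test, adjusted p 8.54e-05) and rose with CCl4 by 0.47 (adjusted p 3.17e-06). With JT003 over CCl4 it fell by 0.46 (interval -0.63 to -0.28, exact test, adjusted p 1.33e-06), and the 21.5 CPM in that library overlapped the 21.9 CPM of corn oil within counting error. Scaled to Actb, the log2 ratio was -0.09 for JT003 over CCl4 and 0.16 for CCl4 over corn oil. The ratio of Tgfbr2 to Tgfbr1 FPKM was 1.37 on SD, 1.08 on HFD and 1.06 on HFD plus JT003, and 1.01 with corn oil, 1.49 with CCl4 and 0.934 with CCl4 plus JT003. Endothelial markers, whose cells are known to carry Tgfbr2, moved the other way between these CCl4 model libraries. They summed to 145, 75.2 and 115 CPM in the order corn oil, CCl4, CCl4 plus JT003. With CCl4 7 of 8 passed as lower, beside 12.2% of all genes, and with JT003 4 as higher, beside 9.81%. In other CCl4 reads of the deposited data 7 of the 8 were also higher than in the CCl4 library, beside 8.26% of all genes. The part of these cells was not tested.

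Smad7, the induced inhibitor of the receptor, had expected counts of 266 in SD, 198 in HFD, 332 in HFD plus JT003, 157 with corn oil, 303 with CCl4 and 318 with CCl4 plus JT003. HFD and corn oil were the low libraries, and their intervals overlapped each other and lay apart from the other 4. Smad7 fell with HFD by 0.51 on the log2 scale (-0.79 to -0.25, exact test, adjusted p 0.000596) and rose with JT003 over HFD by 0.72 (0.46 to 0.98, adjusted p 2.27e-07). It rose with CCl4 by 0.65 (0.38 to 0.95, exact test, adjusted p 1.29e-05), but did not pass over corn oil with other CCl4 reads of the deposited data, at 0.36 (adjusted p 0.0148). With JT003 over CCl4 the log2 ratio of Smad7 was 0.06 and did not pass.

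Inhba encodes the βA subunit of activin A. It had 50 expected counts in SD, 60 in HFD, 58 in HFD plus JT003, 30 with corn oil, 137 with CCl4 and 76 with CCl4 plus JT003. CCl4 was the one high library of the 6, apart from all others, and the remaining 5 had neighbours that overlapped. Inhba rose with CCl4 by 1.84 on the log2 scale (1.32 to 2.52, exact test, adjusted p 1.92e-12) and was called. It fell with JT003 over CCl4 by 0.84 (-1.28 to -0.45, exact test, adjusted p 0.000125), but it did not pass against other CCl4 reads of the deposited data, at -0.52. In the diet model its log2 ratio was 0.17 with HFD and -0.07 with JT003 over HFD, and neither passed.

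Inhbe encodes the βE subunit of activin E. Its expected counts were 3916.18 in SD, 1649.31 in HFD, 1452.84 in HFD plus JT003, 1707.78 with corn oil, 1209.71 with CCl4 and 1163.07 with CCl4 plus JT003. The counts of Inhbe were not whole in any of the 6 libraries, so that some of its reads are shared with another gene and its level is uncertain to that extent. SD was the high library, and each library above CCl4 lay apart from the next lower one. Inhbe fell with HFD by 1.34 on the log2 scale (-1.42 to -1.26, exact test, adjusted p 2.96e-239) and was called. It fell with CCl4 by 0.78 (-0.89 to -0.68, exact test, adjusted p 5.18e-47) without reaching the fold threshold. With JT003 it fell further over HFD, by 0.20 (exact test, adjusted p 0.000574), a direction that turned to 0.13 when scaled to Actb, whereas over CCl4 the log2 ratio was -0.07 and did not pass. The ratio of Inhbe to Inhba FPKM was 55.6 on SD, 19.6 on HFD and 17.8 on HFD plus JT003, and 40.5 with corn oil, 6.28 with CCl4 and 10.9 with CCl4 plus JT003.

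Ctgf encodes connective tissue growth factor, a secreted matricellular protein induced by TGF-β and by YAP and TEAD. Its expected counts were 384 in SD, 286 in HFD, 107 in HFD plus JT003, 228 with corn oil, 219 with CCl4 and 250 with CCl4 plus JT003. SD stood highest and HFD plus JT003 lowest, each apart from its neighbour, and the other 4 overlapped in turn. Ctgf fell with HFD by 0.51 on the log2 scale (-0.74 to -0.29, exact test, adjusted p 2.18e-05). With JT003 over HFD it fell by a further 1.42 (-1.78 to -1.12, exact test, adjusted p 3.61e-19) and was called. In the CCl4 model the log2 ratio of Ctgf was -0.34 with CCl4 (adjusted p 0.0317) and 0.18 with JT003 over CCl4, and neither passed the exact test. Myofibroblast markers, by contrast, summed to 19.7, 69.5 and 33.2 CPM in SD, HFD and HFD plus JT003. In corn oil, CCl4 and CCl4 plus JT003 they summed to 47.8, 150 and 61.3 CPM. Ctgf was thus not highest where this sum was, but most of the sum in CCl4 was Col1a1, with 2483 reads. Of the 7 markers, Col1a1 alone passed as higher with CCl4. Acta2 (165 reads in corn oil and 108 in CCl4) and Myh11 (115 and 52) passed as lower, so the highest library depended on the marker.

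**Figure D2:**
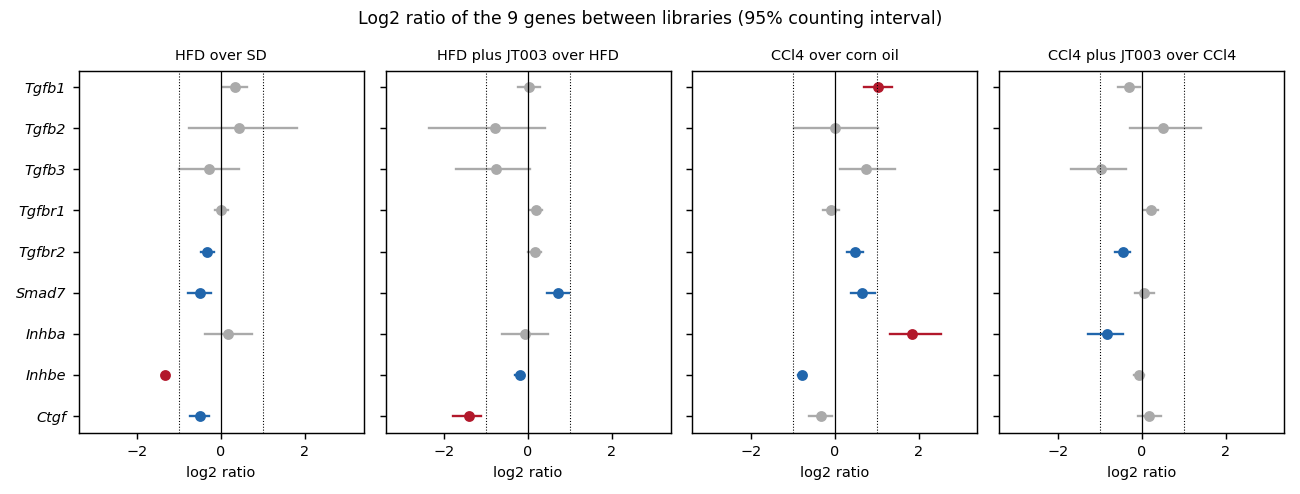
Log2 ratio of the 9 genes (rows) in the 4 comparisons (panels), with 95% counting intervals. Red marks called genes, blue those that passed the adjusted p alone and grey the rest, and dotted lines mark the fold threshold of 1. Inhbe at -1.34, Ctgf at -1.42, and Tgfb1 at 1.02 with Inhba at 1.84 are the red points, and the panel for JT003 over CCl4 has none.

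Counted by comparison, 1 of the 9 genes was called with HFD, a lower one, where 5.44% of the 16973 genes tested were called in either direction. In that comparison 4 of the 9 passed as lower and 0 as higher, beside 13.3% and 10.3% of all genes. With JT003 over HFD 1 was called, beside 1.67% of 17090 genes, and 2 passed as lower and 1 as higher, beside 6.72% and 7.59%. With CCl4 2 were called, both higher, beside 7.26% of 17234 genes, and 4 passed as higher and 1 as lower, beside 14.1% and 12.2%. With JT003 over CCl4 0 of the 9 were called, beside 4.46% of 17393 genes, and 2 passed as lower and 0 as higher, beside 14.3% and 9.81%. Of those 9, 5 had an unadjusted p under 0.05 in the exact test, and edgeR's exact test with an assumed coefficient of variation of 0.2 called 0 as well. The median log2 ratio of the 9 genes was -0.28 with HFD, -0.07 with JT003 over HFD, 0.47 with CCl4 and -0.07 with JT003 over CCl4, where the median over all genes lay between -0.01 and 0.00.

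Both models were also set side by side, by an exact test of the difference between their log2 ratios that used 4 libraries with no library in common. The response to CCl4 over corn oil was higher than that to HFD over SD for Inhba by 1.68 on the log2 scale (adjusted p 9.16e-05, exact test), for Smad7 by 1.17 (adjusted p 1.34e-08), for Tgfbr2 by 0.80 (adjusted p 4.47e-10) and for Inhbe by 0.55 (adjusted p 1.27e-14). Smad7 and Tgfbr2 fell in one model and rose in the other, whereas Inhbe fell in both and less with CCl4. The share of all genes whose responses differed was 25.3%. For Tgfb1 the difference was 0.69 and did not pass (exact test, adjusted p 0.00595).

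The response to JT003 differed between the models for 3 of the 9 genes, where 17.7% of all genes did. The HFD and CCl4 libraries enter these differences and those above with opposite sign, so that the results are not independent. For Ctgf the log2 ratio was 1.60 higher in the CCl4 model (exact test, adjusted p 1.04e-13). For Tgfbr2 it was lower there, with a difference of -0.61 (exact test, adjusted p 2.36e-06), and for Smad7 likewise, with -0.66 (adjusted p 0.000904). For Inhba, which passed with JT003 in the CCl4 model and not in the diet model, the difference of -0.77 itself did not pass (exact test, adjusted p 0.0797). Doses were equal, but JT003 was given for 4 weeks in the diet model and 3 weeks in the CCl4 model.

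A further column of the deposited data bears on the CCl4 results. In the authors' comparison of JT003 with CCl4, the CCl4 column sums to 2.97 times the CCl4 library, and subtracting that library left a remainder of 39780549 reads, which shares no reads with it. The table does not say which livers these reads came from. Of the 9 genes only Tgfbr1 differed between the remainder and the CCl4 library, by 0.41 on the log2 scale (0.26 to 0.56, exact test, adjusted p 2.36e-07), and 0 were called. Of 17471 genes 1.69% were called in that comparison, 8.26% passed as higher and 12.3% as lower.

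With the remainder in place of the CCl4 library, Inhba and Tgfb1 were still called over corn oil, at log2 ratios of 1.53 and 1.17. Tgfb3, with 172 reads in the remainder, was then called as well, at 1.14 over corn oil and -1.38 for JT003 over the remainder. Inhba no longer passed for JT003, at -0.52 (-0.92 to -0.15, exact test, adjusted p 0.0163). Tgfbr1, at 31.5 CPM in the remainder, had an interval (29.9 to 33.3) that met those of SD and HFD and not that of HFD plus JT003. It then passed as higher over corn oil, at 0.29 (exact test, adjusted p 0.000563), where the CCl4 library gave -0.10, and Smad7 no longer passed there, at 0.36. Tgfbr2 still passed for JT003, at -0.56, and Tgfb1 now passed at -0.46 (exact test, adjusted p 0.000227). The comparisons over corn oil share the single corn oil library. Of the differences between models, those of Inhba with CCl4 (1.36, adjusted p 0.00202) and of Smad7 with JT003 (-0.37, adjusted p 0.0825) no longer passed the exact test, whereas that of Tgfb1 with CCl4 now did (0.84, adjusted p 0.000255).

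**Figure D3:**
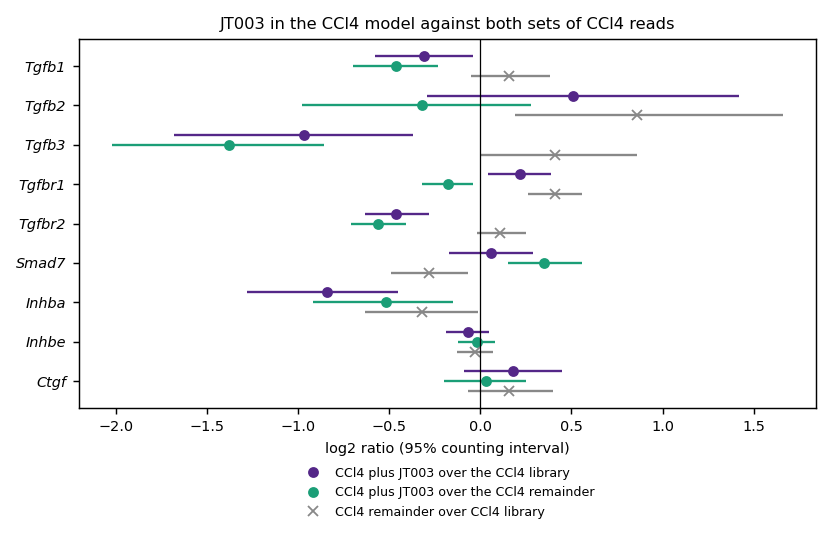
Log2 ratio (horizontal axis, 95% counting interval) of the 9 genes for CCl4 plus JT003 over the CCl4 library (purple) and over the remainder of the pooled CCl4 counts (green), and for the remainder over the CCl4 library (grey crosses). Tgfb3 moves from -0.97 to -1.38 and Inhba from -0.84 to -0.52 when the reference changes, while Tgfbr2 lies at -0.46 and -0.56.

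The control libraries were themselves unlike for these genes. Corn oil was lower than SD for 6 of the 9 genes, beside 15.8% of the 17018 genes that passed as lower, and 0 were higher, beside 13.2%. Inhbe was called among them, at a log2 ratio of -1.05, where 5.52% of all genes were called. The others that passed were Tgfbr2 at -0.84, Tgfb1 at -0.68, Smad7 and Ctgf at -0.60 each and Tgfbr1 at -0.40. Vehicle, experiment and its length (16 weeks of HFD in one model, 6 weeks of CCl4 in the other) differ together between these libraries and cannot be told apart. For Tgfb1, Smad7 and Inhba, corn oil was the lowest library of the 6, so that a ratio of CCl4 to corn oil started from that level. The CCl4 library had 12.1 CPM of Tgfb1, 14.3 CPM of Smad7 and 6.46 CPM of Inhba, where SD had 9.76, 14.1 and 2.65.

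Around the ligands lie the genes that store and release them, a list of 15 that holds the latent binding proteins, integrins and Thbs1. The shares of all genes that passed as higher, passed as lower and were called belong beside this list and those below. They were 10.3%, 13.3% and 5.44% with HFD, and 7.59%, 6.72% and 1.67% with JT003 over HFD. With CCl4 they were 14.1%, 12.2% and 7.26%, and with JT003 over CCl4 9.81%, 14.3% and 4.46%. With HFD 3 of the 15 listed genes passed as higher and 0 as lower, with a median log2 ratio of 0.35 over the list. Thbs1, thrombospondin, a known activator of latent TGF-β, had 18 reads on SD, 125 on HFD and 30 on HFD plus JT003. It was called in both steps, at 2.58 with HFD and -2.01 with JT003, and was the single gene of the list that passed with JT003 over HFD. With CCl4 6 passed as higher and 3 as lower of the 14 tested, and 4 were called: Ltbp2 at 1.42, Thbs1 at 1.25, Fbn1 at 1.14 and Emilin1 at 1.02. Itgb5, an integrin subunit, rose with CCl4 by 0.94 and fell with JT003 by 0.59. It was also lower in the remainder than in the CCl4 library, at -0.27 (exact test, adjusted p 1.31e-10). In that comparison 8 of the 15 passed as higher and 1 as lower, beside 8.26% and 12.3% of all genes. With JT003 over CCl4 3 of the 15 passed as higher and 2 as lower, with 0 called, and the list's medians in the 2 JT003 comparisons were both -0.09.

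Of the other receptors and co-receptors, 9 of 11 were found and none was called in these 4 comparisons. Acvr2b, a type II receptor of activin, fell with HFD by 0.57 and rose with JT003 by 0.84, and it fell with CCl4 by 0.62 and rose with JT003 by 0.78. Eng, the endothelial co-receptor endoglin, fell with HFD by 0.20, rose with JT003 by 0.30 and fell with CCl4 by 0.84. In sum 2 passed as lower with HFD, 2 as higher with JT003 over HFD, 2 as lower with CCl4 and 1 as higher with JT003 over CCl4. The shares of all genes were 13.3%, 7.59%, 12.2% and 9.81% in the same order. The list's median log2 ratios were -0.20, 0.28, -0.17 and 0.12 in that order.

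Of the other activin and inhibin genes and their antagonists, 7 of 8 were found. Inhbc, the βC subunit and a hepatocyte product like Inhbe, fell with HFD by 0.68 and rose with JT003 by 0.58, the step in which Inhbe fell. Fst, follistatin, which binds and blocks activin, had 52 reads in HFD and 16 in HFD plus JT003, a called log2 ratio of -1.61. With CCl4 Fst rose by 1.01, to 130 reads from 52, and with JT003 it fell by 0.79, to 75 reads, the same directions as Inhba. Inhbb, the βB subunit, fell with JT003 over HFD by 0.91. Gdf15, a divergent member of the family and a stress gene, was called with HFD at 1.39 and with CCl4 at 2.22. In counts, 1 passed as higher and 1 as lower with HFD, 1 and 3 with JT003 over HFD, 2 and 1 with CCl4, and 0 and 2 with JT003 over CCl4. The medians were -0.19, -0.50, 0.54 and -0.01.

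Of the 14 SMADs and their regulators, 4 passed as lower with HFD, beside 13.3% of all genes, and 2 as higher with JT003 over HFD, beside 7.59%. With CCl4 5 passed as higher, beside 14.1%, of which Pmepa1, a TGF-β target that binds SMADs, was called at 1.09. With JT003 over CCl4 3 passed as lower, beside 14.3%. Ski, a corepressor of SMADs, fell with HFD by 0.28, rose with CCl4 by 0.90 and fell with JT003 by 0.53. Smad3 fell with JT003 over CCl4 by 0.48 and Smad4 by 0.41. Ski was also lower in the remainder than in the CCl4 library, at -0.54 (exact test, adjusted p 8.61e-19), about the size of its fall with JT003, and Pmepa1 was at -0.42 there without passing. The medians of the list were -0.16, 0.23, 0.17 and 0.05.

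The list of TGF-β response genes holds 18, mostly of the matrix and the contractile apparatus. It shares Pmepa1, Skil, Ltbp2 and Itgb6 with the lists above, so that the called Pmepa1 and Ltbp2 are counted again with CCl4. With HFD 9 passed as higher and 2 as lower, and 7 were called, with Col1a1 at 2.23, Col3a1 at 1.94, Postn at 1.90 and Col1a2 at 1.59. With JT003 over HFD 6 passed as lower and 1 as higher, and 5 were called, among them Col1a1 at -1.41, Col3a1 at -1.32 and Col1a2 at -1.07. With CCl4 9 passed as higher and 1 as lower, with Col1a1 at 3.13, Col3a1 at 2.63 and Col1a2 at 2.37 among the 6 called. Acta2, α smooth muscle actin, was the one that passed as lower with CCl4, at -0.89. Its ratio started from a high corn oil level, of 165 reads against 31 in SD, a called log2 ratio of 2.48. Myh11, another of the myofibroblast markers, had 115 reads in corn oil and 17 in SD. With JT003 over CCl4 8 passed as lower and 1 as higher, and 4 were called: Col1a1 at -1.51, Acta2 at -1.24, Col1a2 at -1.23 and Tagln at -1.11. The list's medians were 0.78, -0.60, 0.70 and -0.42. Of the list, 6 genes also stand in the myofibroblast markers, whose sums are given with Ctgf, and the part of these cells was not tested.

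Thbs1 and Ctgf thus fell together with JT003 over HFD, and Cyr61, a close relative of Ctgf and a YAP and TEAD target, fell by 1.27 there after a rise of 0.75 with HFD. Of the 9 YAP and TEAD response genes, 1 passed as higher and 1 as lower with HFD, and likewise with JT003 over HFD. With CCl4 4 passed as higher and 0 as lower, and with JT003 over CCl4 0 and 5, where Ankrd1 went from 10 reads in corn oil to 41 in CCl4 and 9 in CCl4 plus JT003. Without JT003, 4 of the 9 were also lower in the remainder than in the CCl4 library, beside 12.3% of all genes. These were Ankrd1 at -1.38, Cyr61 at -0.75, Amotl2 at -0.47 and Ajuba at -0.39. The medians were 0.13, 0.07, 0.44 and -0.39.

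Inhbe is known as a gene of the ATF4 and CHOP stress response, and 12 genes of that response were set beside it. With HFD 5 were called as higher and 2 as lower. Among the 5 is Gdf15, which was also counted with the activin genes above. Ddit3, which encodes CHOP, went from 62 reads in SD to 273 in HFD and 84 in HFD plus JT003, at 2.01 and -1.70. Asns and Fgf21 moved as Inhbe did with HFD, at -3.61 and -3.30, and Fgf21 rose with JT003 by 1.44 where Inhbe fell. With JT003 over HFD 2 passed as higher and 3 as lower, with CCl4 4 and 1, and with JT003 over CCl4 2 and 6. Asns was lower with CCl4 as well, at -2.33, and Atf3 higher, at 3.61, but Asns was called as higher in the remainder than in the CCl4 library, at 1.25. The medians of the list were 0.23, 0.10, 0.19 and -0.38.

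**Figure D4:**
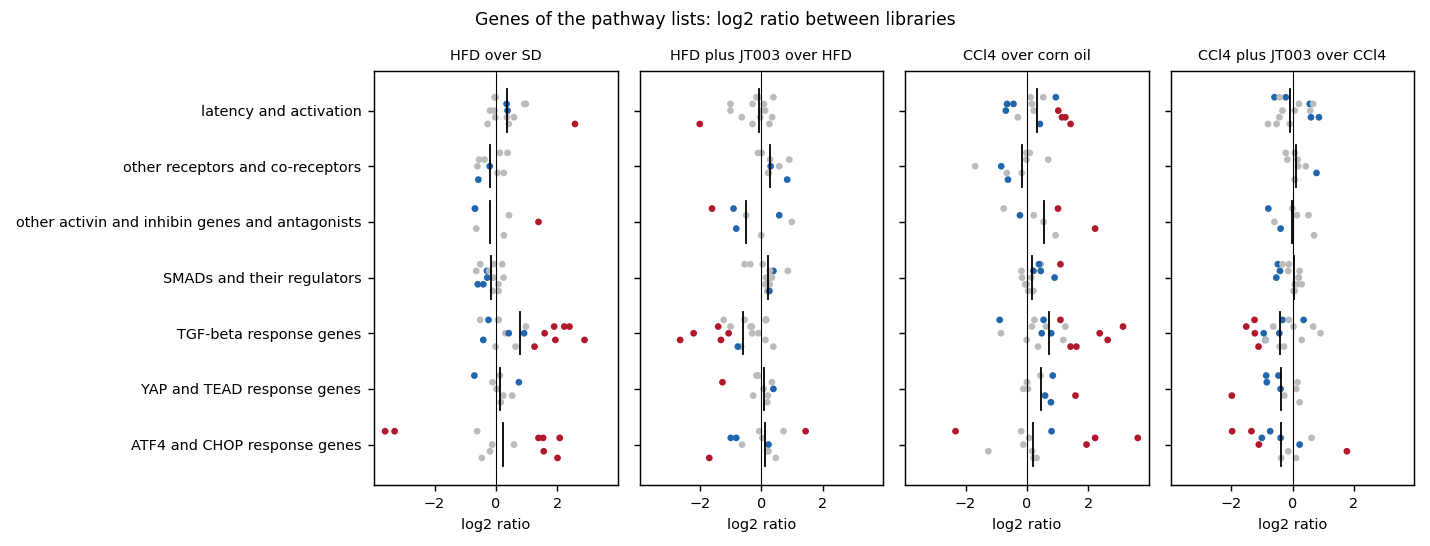
Log2 ratio of each gene (points) of the 7 pathway lists (rows) in the 4 comparisons (panels), with the list's median as a black bar. Red points were called, blue points passed the adjusted p alone and grey points did not pass. The TGF-β response genes have their median at 0.78 with HFD and 0.70 with CCl4, and at -0.60 and -0.42 with JT003.

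Genes with a like course over the 6 libraries were sought among 11661 genes with at least 50 reads in a library, by Pearson's r of log2 CPM, as a description. Emilin1, a matrix protein of the latency list, was the most alike to Tgfb1 (r 0.998 over 6 libraries), before Flna (0.99) and Bms1 (0.985). For Smad7 it was Bambi (0.959), a decoy receptor of the TGF-β family, before Herc3 (0.954). Inhba was followed by Arhgap10 (0.994), Shroom3 (0.992) and Lgals3 (0.981), a macrophage lectin, and Tgfb3 by Gorasp2 (0.991) and Des (0.99), a marker of stellate cells. Nearest to Inhbe was Sel1l3 (0.995), to Ctgf Cdk5rap1 (0.993), to Tgfbr1 Cul4b (0.998) and to Tgfbr2 Phlpp1 (0.998). With 6 points high values are common: 680 genes reached 0.9 with Tgfbr1, 403 with Tgfbr2, 173 with Inhba, 164 with Inhbe, 137 with Tgfb3, 130 with Tgfb1, 31 with Ctgf and 19 with Smad7. The 6 points share depth and sequencing, and Tgfb2 was too low to enter.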

How the data were processed

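Liver RNA was sequenced on a BGISEQ-500 in 6 libraries, 1 per condition, and grouped by the labels. The submitters' processing notes list HISAT, Bowtie2, RSEM and mm9, with no versions or order. The authors deposited, per gene, an expected count (not normalized, 69.9% to 70.9% of values whole) and an FPKM value. They also deposited comparison tables with their own ratios and p-values, which were not used, nor were 7 expression columns of those tables. The pooled CCl4 expected counts of 1 table were used as an alternative.

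Expected counts were rounded and scaled by TMM factors (edgeR 4.0.16). Genes with at least 1 read were tested on the reads of both libraries with the exact binomial test of SciPy 1.17.1 (two-sided), the p-values being adjusted after Benjamini and Hochberg over all of them, with a prior count of 2 for log2 ratios. Differences between the models were tested with Fisher's noncentral hypergeometric distribution (two-sided, doubled tail). Intervals are Clopper-Pearson for ratios and Poisson for levels, both at 95%. Both tests were checked on simulated data. All 9 genes were named, and genes of the lists were named where they passed. The 9 genes, the lists and their tests were proposed with earlier results of these data known, although the rule itself uses gene symbols and no values. Promoters came from RefSeq (GRCm38.p6), where 6 of the 9 genes were found, and no coordinates were taken from mm9. Alternatives included DESeq2 1.42.0 size factors. Python 3.11.15, NumPy 2.4.6, pandas 2.3.3 and matplotlib 3.10.9 were used.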

Additional observations from a re-analysis of the deposited data

Results flagged for a closer look

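The responses of some of the genes differed between the diet model and the CCl4 model in the exact test of the difference, and those results are collected here. Between CCl4 over corn oil and HFD over SD, the log2 ratio differed by 1.68 for Inhba, by 1.17 for Smad7, by 0.80 for Tgfbr2 and by 0.55 for Inhbe. Between JT003 over CCl4 and JT003 over HFD it differed by 1.60 for Ctgf, by -0.61 for Tgfbr2 and by -0.66 for Smad7. When the remainder of the pooled counts stood for CCl4, the difference of Inhba with CCl4 (1.36, adjusted p 0.00202) and that of Smad7 with JT003 (-0.37, adjusted p 0.0825) no longer passed the exact test, so that Tgfbr2 was the one gene in both sets with either reference. Both sets share the HFD library and the CCl4 reads, which enter them with opposite sign, so the sets are not independent. A deviation of either alone could place a gene in both sets, in opposite directions, as those of Tgfbr2 were. These differences rest on 1 library per condition, and the spread between mice was not measured.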

How the results depend on the processing

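With 1 library per condition no replicate could be left out. No paired analysis was possible because each group holds a single sample. The count of genes of the 9 that were called (1 with HFD, 1 with JT003 over HFD, 2 with CCl4, 0 with JT003 over CCl4, 1 for corn oil over SD and 0 for the remainder over the CCl4 library) became 4, 3, 5, 2, 6 and 1 without the fold threshold, and the count of all genes became 4003, 2445, 4531, 4199, 4929 and 3585. Assuming a biological coefficient of variation of 0.2, the count of the 9 was 0 in each comparison, and of all genes 179, 19, 346, 165, 105 and 22. With 0.4 it was again 0, and 11, 0, 59, 0, 6 and 0 of all genes. By log2 of FPKM plus 0.1, all genes past the fold threshold numbered 1634, 947, 2298, 1554 and 1737 in the first 5 comparisons. With FPKM plus 1, 1 of the 9 stayed past it with CCl4, Tgfb1 being at 1.00, and all genes numbered 496 with JT003 over CCl4 and 509 for corn oil over SD.

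Scaling to Actb moved the median of all genes by 0.32 with JT003 over HFD, -0.28 with CCl4 and 0.36 with JT003 over CCl4. It called 2 of the 9 and 506 genes with JT003 over HFD (Smad7 at 1.05), 1293 genes with JT003 over CCl4 and 0 of the 9 for corn oil over SD. It reversed Inhba (0.26) and Inhbe (0.13) with JT003 over HFD, Tgfb2 with CCl4 (-0.27), and Tgfb1 (0.06) and Inhbe (0.30) with JT003 over CCl4. Tgfbr2 then stood at -0.09 with JT003 over CCl4 and 0.16 with CCl4. The share of calls that were higher became 85.2% in place of 46% with JT003 over HFD, 37.2% in place of 66.1% with CCl4, 81.1% in place of 42.8% with JT003 over CCl4 and 52.7% in place of 40.7% for corn oil over SD. Total reads moved the median by 0.12 with HFD and 0.23 with CCl4, and the share to 65.7% from 54.3%, to 81.7% from 66.1% and, for corn oil over SD, to 30% from 40.7%. They turned Tgfbr1 with CCl4 (0.13) and Inhbe in the remainder (0.04). Tgfbr1 with CCl4 was also higher by FPKM plus 0.1 (0.13), FPKM plus 1 (0.11), the pooled counts (0.18) and the remainder (0.29). For JT003, the pooled counts and the remainder, an alternative chosen after seeing the data, each called 1 of the 9, Tgfb3, and turned Tgfb2 (-0.10 and -0.32) and Tgfbr1 (-0.07 and -0.18). The cause was not tested. Of 558 log2 ratios of single genes under an alternative, 508 kept their direction and side of the threshold. Part of this was fixed beforehand. A minimum of 10 reads, no fold threshold and the assumed coefficients of variation leave the log2 ratio as it was and can change the call only. Depth limits Tgfb2 and Tgfb3, at most 31 and 62 reads in a library.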
